A study of Homo sapiens with 4 samples.

Results

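The genes described here repair chemically damaged or mispaired bases: 41 genes of direct alkylation reversal, base excision repair, nucleotide excision repair and mismatch repair. They were taken by symbol from the 4 deposited tables, and all 41 were found, once each, among 60487 genes per table. The RNA came from HCC1937, a human breast cancer cell line without working BRCA1, which held either the vector (labelled BRCA1 -/-) or wtBRCA1 (labelled wild type). Each line received the solvent DMSO or OTX-015, known as birabresib, which blocks BET proteins from binding acetylated histones. The 4 groups (each line with each agent) have 1 library each, and paired values below give DMSO first and OTX-015 after it. All groups share the HCC1937 background. The dose, the time of exposure, and whether either line is a clone or a pool are not given in the sources used here.

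In direct reversal, an enzyme undoes the damage on the base itself, as MGMT does for methylated guanine and the ALKBH dioxygenases do for methylated adenine and cytosine. In base excision repair, a glycosylase removes the damaged base, APEX1 cuts the bare site, and polymerase beta (POLB) and the scaffold XRCC1 help to fill and seal it. In nucleotide excision repair, bulky damage is found either by XPC and the DDB proteins or by stalled transcription through ERCC6 and ERCC8, the TFIIH complex opens the helix, and ERCC5 and the pair ERCC1 and ERCC4 cut out the damaged strand. Mismatch repair corrects replication errors through MutS proteins such as MSH6 and MSH3 and MutL proteins such as PMS2, PMS1 and MLH3.

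Levels are FPKM, fragments scaled by transcript length and by the library's fragments, which allow comparison between genes per length. The tables hold no read counts, and library depth is unknown. All 41 genes reached 1 FPKM in at least 1 library and entered the analysis with 18304 genes in all. Differences are on the log2(FPKM + 1) scale, which understates changes of low genes. A gene is said to rise or fall where limma, a linear model fitted across all genes with line and treatment as terms, gave a Benjamini-Hochberg adjusted p under 0.05. With 1 library per group this fit has 1 residual degree of freedom per gene. Most of its error estimate is therefore borrowed from the trend over all genes. The fit asks whether the mean difference over both lines (or treatments) is large against this error, so a difference of unlike size in them can also pass. It does not measure the spread between repeated cultures. Differences within a single pair of libraries had no test, and a difference of 1 log2 unit is used there as a mark of size.

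The FPKM of all genes summed to 909314 and 1496107 for the vector line and to 962379 and 1477103 for the wtBRCA1 line. The 10 highest genes made up 17.4% and 39.2% of these sums for the vector line and 15.3% and 33.8% for the wtBRCA1 line. BRCA1 was listed at 37.2 and 40.8 FPKM with the vector and 171 and 2712 with wtBRCA1, so the direction of the line labels held. The lines thus differed far more in BRCA1 level under OTX-015 than under DMSO. All 7 epithelial markers were above 0 in each library, from 5710 to 25540 FPKM in sum, most of it KRT8. KRT8 was at 8160 and 23339 FPKM with the vector and 3185 and 4476 with wtBRCA1. KRT5 was at 29.4 and 23.2 FPKM with the vector and 980 and 573 with wtBRCA1. KRT14 was at 0.438 FPKM in the vector DMSO library. The 6 fibroblast markers summed to between 2.11 and 9.78 FPKM, almost all of it COL1A1. COL1A2, COL3A1, DCN and PDGFRB were listed at 0 in all 4 libraries. The 5 leukocyte markers summed to between 15.6 and 44.6 FPKM, nearly all of it CD68, with CD3E listed at 0. The 4 endothelial markers summed to between 0.67 and 7.03 FPKM, with VWF and KDR listed at 0.

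The repair genes spanned more than 2 orders of magnitude. With the vector libraries before the wtBRCA1 libraries, the median member had 16.7, 16.5, 15.2 and 12.8 FPKM, and the median of all 18304 genes tested was 6.89, 7.17, 7.02 and 7.14 FPKM. DDB1, an adaptor of the CUL4 ubiquitin ligase, was the highest member by mean level, at 174, 217, 204 and 278 FPKM. ERCC1, the non-catalytic partner of the ERCC4 nuclease, followed at 147, 107, 222 and 227 FPKM. ERCC4 itself was the lowest by mean level, at 6.38, 0.933, 2.26 and 2.34 FPKM, so the levels of these partner genes were far apart in each library. APEX1, the main abasic site nuclease, was at 126, 157, 103 and 91.3 FPKM, while its paralog APEX2 was at 3.57, 4.51, 6.87 and 7.31.

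**Figure D1:**
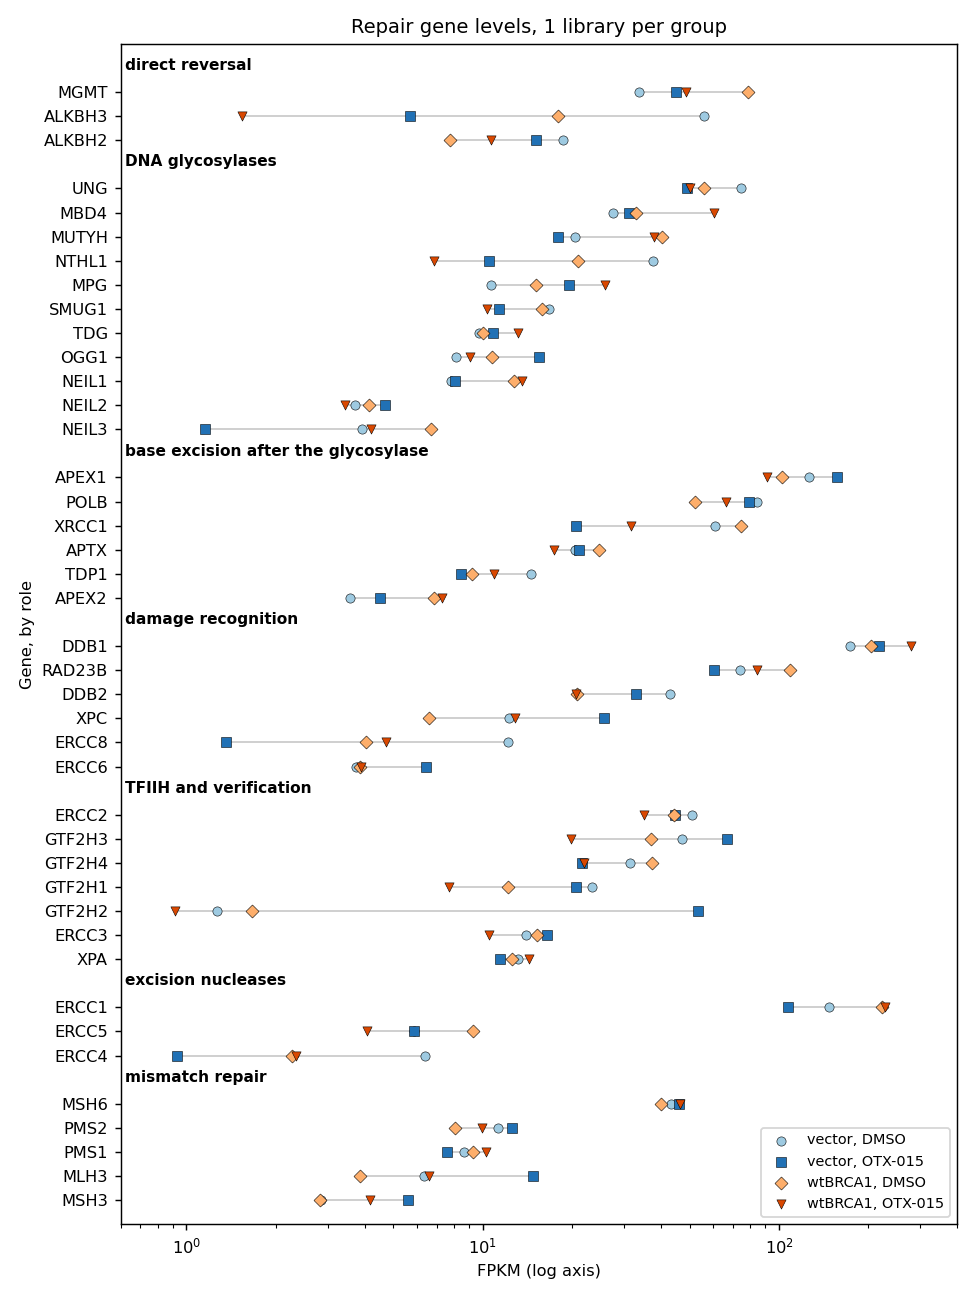
FPKM (log axis) of the 41 repair genes, grouped by role and ordered by mean level, with 1 marker per library. Most genes keep within a narrow band over the 4 libraries, and ALKBH3, NEIL3, ERCC8, GTF2H2 and ERCC4 have the widest spread on this axis.

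Under OTX-015, 3 of the 41 genes fell in both lines, ALKBH3, NTHL1 and XRCC1, and none rose. ALKBH3 demethylates alkylated bases in single-stranded DNA and RNA, NTHL1 is the glycosylase for oxidised pyrimidines, and XRCC1 is the scaffold of single-strand break repair. Of all genes tested, 2.58% were lower and 3.57% higher by the same rule (6.15% in either direction), against 7.32% and 0.0% of the members. At an unadjusted limma p under 0.05, 3 members were lower (the same 3) and 3 higher (XPC, MPG and MLH3), against 10.2% and 12.5% of all genes (22.7% in either direction). The same 3 genes were at least 1 log2 unit lower in each line, and no member was that much higher in both, where 4.43% and 4.58% of all genes met that rule.

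ALKBH3 (ENSG00000166199, chromosome 11, 43880811 to 43920266, plus strand, hg38) was at 55.7 and 5.70 FPKM with the vector and 18.0 and 1.54 with wtBRCA1. Each OTX-015 library thus lay below both DMSO libraries, at 0.102 times the DMSO level in vector cells and 0.0853 times in wtBRCA1 cells. Such separation of the treatments was not counted over all genes. It also occurred in members that did not pass, such as DDB1, GTF2H4, TDG, MSH3, UNG, SMUG1 and MSH6, and is not used here as support for a call. The effect over both lines was -2.99 ± 0.35 log2 (SE, limma adjusted p = 0.00303). The other oxidative dealkylase of the list, ALKBH2, which acts on double-stranded DNA, was at 18.7 and 15.1 FPKM with the vector and 7.76 and 10.7 with wtBRCA1. Its difference was 0.06 ± 0.36 log2 (limma adjusted p = 0.933).

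NTHL1 (ENSG00000065057, chromosome 16, 2039815 to 2047866, minus strand) was at 37.5 and 10.5 FPKM with the vector and 20.9 and 6.87 with wtBRCA1. The NTHL1 effect was -1.61 ± 0.34 log2 (SE, limma adjusted p = 0.0284). XRCC1 (ENSG00000073050, chromosome 19, 43543040 to 43580473, minus strand) was at 60.8 and 20.6 FPKM with the vector and 74.3 and 31.7 with wtBRCA1. Its effect was -1.36 ± 0.31 log2 (SE, limma adjusted p = 0.0368).

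These calls rest on the choices of the fit. Over the 8 alternatives that kept all 4 libraries, ALKBH3 stayed past the threshold in 6, NTHL1 in 3 and XRCC1 in 0, with the highest adjusted p 0.49 for each. With any 1 of the 4 libraries left out, the line term must be left out too and 1 treatment keeps 1 library. Such a fit cannot decide whether a call on a single gene holds, so only its effect sizes are given in this paragraph. Over those 8 alternatives ALKBH3 was between -3.37 and -2.16 log2, NTHL1 between -1.71 and -1.29 and XRCC1 between -1.44 and -1.24. With a library left out, ALKBH3 was at -2.21 log2 (without vector DMSO), -2.29 (without wtBRCA1 OTX-015), -3.69 (without vector OTX-015) and -3.78 (without wtBRCA1 DMSO). In the same omissions NTHL1 ranged from -2.01 to -1.20 and XRCC1 from -1.66 to -1.06. After median-of-ratios rescaling, which allows for the larger share of the highest genes under OTX-015, the values were -3.05, -1.67 and -1.43 log2.

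Among members that did not pass, XPC, the damage sensor of global genome repair, was at 12.3 and 25.7 FPKM with the vector and 6.61 and 12.8 with wtBRCA1. The OTX-015 library held 2.09 and 1.94 times the DMSO level. Both OTX-015 libraries lay above both DMSO libraries (12.8 against 12.3 FPKM at the closest), a separation not counted over all genes. The difference of 0.93 ± 0.34 log2 had a limma adjusted p of 0.145. MPG, the glycosylase for alkylated purines, was at 10.6 and 19.6 FPKM with the vector and 15.2 and 25.9 with wtBRCA1. Its difference was 0.78 ± 0.34 log2 (limma adjusted p = 0.207). MLH3, a MutL protein, was at 6.34 and 14.7 FPKM with the vector and 3.84 and 6.59 with wtBRCA1, which left 6.59 against 6.34 FPKM as the closest pair across treatments. Its difference was 0.87 ± 0.37 log2 (limma adjusted p = 0.196). Genes on the opposite strand that share transcript sequence with MPG and XPC were also higher under OTX-015. NPRL3, which shares 24.5% of the 50-base words of MPG, was at 54.3 and 94.2 FPKM with the vector and 55.1 and 86.3 with wtBRCA1. AC093495.1, which shares 16.8% of those of XPC, was at 57.8 and 95.4 FPKM with the vector and 66.1 and 82.4 with wtBRCA1. The library kit marks strand, but the sources used here do not give whether the quantification used it, and the part of these neighbours in the values of MPG and XPC was not tested.

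The sequence before the RefSeq start of these 5 genes is shown because 3 of them fell together and XPC and MPG were higher in both lines without passing the test. The choice of XPC and MPG was made after their values were seen. Motifs were searched in the 250 bases before the RefSeq start (GRCh38.p14). In GENCODE 29 much of these windows is annotated as untranslated region of the gene itself or of a neighbour. TSC2 covers 231 bases of the NTHL1 window, LSM3 all 250 of the XPC window and XRCC1 all 250 of its own. The windows of XRCC1 and MPG lie wholly inside the GENCODE spans of these genes, as does the stretch printed for XPC. The letters printed for XRCC1, MPG and XPC are therefore not upstream of the whole gene. The part outside such annotation is therefore printed for ALKBH3 (chr11:43880581-43880810, plus strand) and MPG (chr16:77975-78062, plus strand). For the others the 30 bases richest in motif letters are printed, for NTHL1 at chr16:2047966-2047995, for XRCC1 at chr19:43575528-43575557 and for XPC at chr3:14178626-14178655, all on the minus strand. Each reads 5′ to 3′ on the gene's strand. Capitals mark matches on either strand to the E-box CACGTG, the ETS core CCGGAAG, the CCAAT box CCAAT and the GC box GGGCGG, and the only overlap in the windows is between adjoining GC boxes of MPG.
ALKBH3: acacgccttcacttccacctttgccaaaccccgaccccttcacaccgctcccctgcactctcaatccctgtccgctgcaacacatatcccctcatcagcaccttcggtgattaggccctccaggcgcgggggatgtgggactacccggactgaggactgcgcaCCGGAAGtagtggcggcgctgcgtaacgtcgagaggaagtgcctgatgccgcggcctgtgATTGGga
NTHL1: ccgCCGGAAGcgcgacccgcaCTTCCGGta
XRCC1: gccagcgcagggcgcaccCCGCCCcctccc
MPG: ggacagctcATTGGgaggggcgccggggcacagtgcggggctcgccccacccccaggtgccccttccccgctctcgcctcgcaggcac
XPC: gcgcaccgcctcgGGGCGGggccggcgttc
Over the whole windows, ALKBH3 had an ETS core that begins 87 bases and a CCAAT box that begins 27 bases before the start. NTHL1 had 2 ETS cores, an E-box 42 bases before the start and 2 GC boxes. XRCC1 had a CCAAT box and a GC box, MPG an E-box, a CCAAT box and 3 GC boxes, and XPC a GC box alone. No motif was common to all 3 genes that fell, and the E-box occurred in 1 gene that fell and in MPG. The E-box was present in 6.3% of all 35116 windows of this length, the ETS core in 8.5%, the CCAAT box in 32.0% and the GC box in 42.6%. Of the 54 windows of the 38 members matched in that table (all but SMUG1, POLB and NEIL2), 7 held the E-box, 9 the ETS core, 24 the CCAAT box and 37 the GC box. The median GC content was 64.6% in the members' windows and 58.0% in all windows. Such matches describe the sequence and are not measured binding sites.

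**Figure D2:**
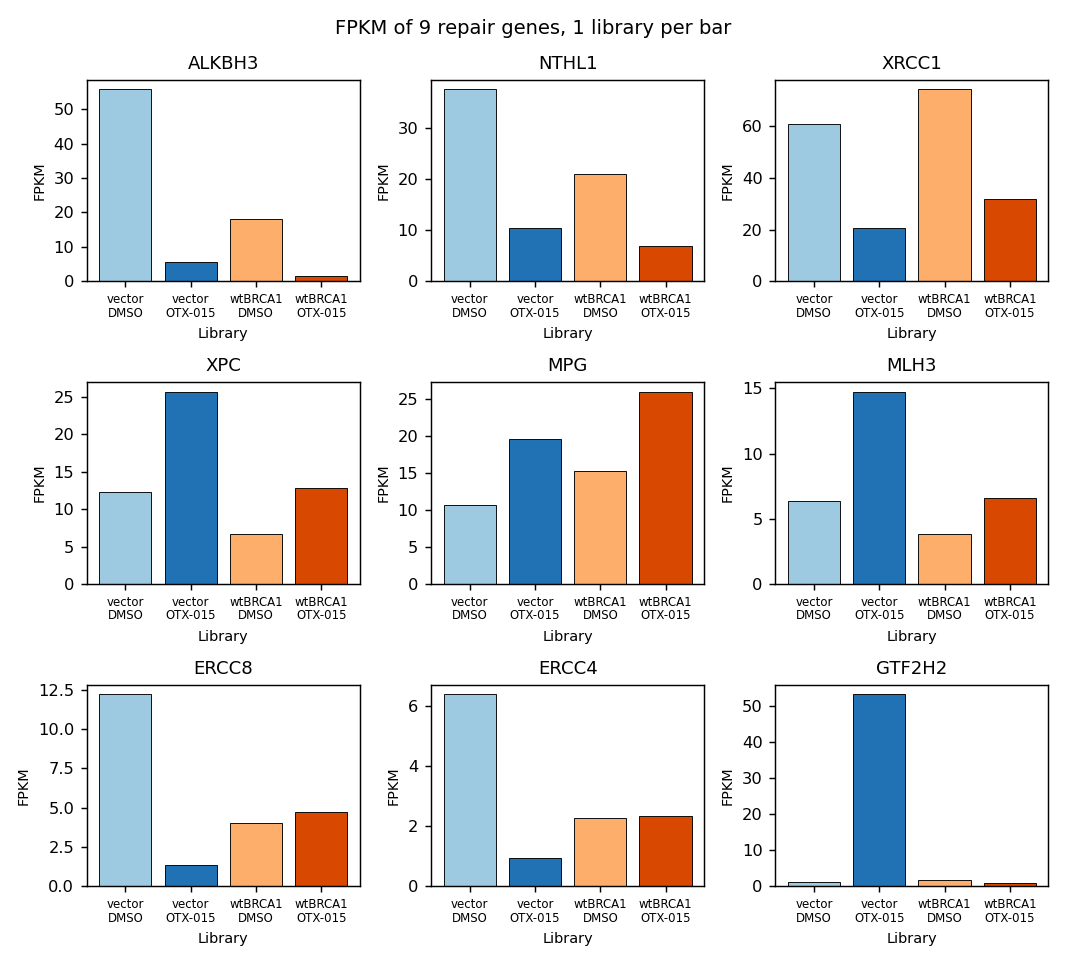
FPKM of 9 repair genes, 1 bar per library, each panel on its own axis from 0. ALKBH3, NTHL1 and XRCC1 (top) are lower under OTX-015 in both lines, XPC, MPG and MLH3 (middle) are higher in both, and ERCC8, ERCC4 and GTF2H2 (bottom) differ from DMSO mainly in vector cells.

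No other glycosylase passed the test under OTX-015. UNG and SMUG1, which remove uracil, were at 74.3 and 48.7 FPKM (UNG) and at 16.7 and 11.3 FPKM (SMUG1) in vector cells. In wtBRCA1 cells UNG was at 55.8 and 50.1 FPKM and SMUG1 at 15.8 and 10.3, so both genes had their lower values under OTX-015 in each line. TDG and MBD4, which act on mismatched thymine, had differences of 0.26 ± 0.35 and 0.51 ± 0.33 log2 (limma adjusted p = 0.70 and 0.413). MBD4 was at 27.5 and 31.1 FPKM with the vector and 32.9 and 60.2 with wtBRCA1, where it was the highest glycosylase under OTX-015. OGG1, the glycosylase for oxidised guanine, was at 8.10 and 15.5 FPKM with the vector and 10.7 and 9.06 with wtBRCA1.

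NEIL3, a glycosylase of proliferating cells, was at 3.93 and 1.16 FPKM with the vector and 6.70 and 4.21 with wtBRCA1, a difference of -0.88 ± 0.41 log2 (limma adjusted p = 0.246). Its paralogs NEIL1 and NEIL2 had differences of 0.06 and 0.03 log2. Of 14 S-phase genes, listed as a sign of proliferation, 1 fell under OTX-015 (MCM5, -1.35 ± 0.31 log2, limma adjusted p = 0.0383) and none rose. That is 7.14% lower and 0.0% higher, against 2.58% and 3.57% of all genes. At an unadjusted limma p under 0.05, 2 were lower and 2 higher, or 14.3% each, against 10.2% and 12.5% of all genes. The median over these 14 genes was 0.00 log2 with the vector and 0.07 with wtBRCA1.

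After the glycosylase step, XRCC1 was the only member to pass the test. POLB, the gap-filling polymerase, was at 84.5 and 79.5 FPKM with the vector and 52.1 and 66.4 with wtBRCA1, a difference of 0.13 ± 0.30 log2 (limma adjusted p = 0.829). APTX, which repairs abortive ligation ends, had -0.22 ± 0.34 log2, APEX1 0.07 ± 0.28 and APEX2 0.18 ± 0.38. TDP1, which clears topoisomerase remnants from DNA ends, was at 14.6 and 8.46 FPKM with the vector and 9.17 and 10.9 with wtBRCA1, so that the difference had opposite signs in the lines.

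None of the 5 mismatch repair genes passed the test under OTX-015, where 6.15% of all genes did, so the absence of a call among 5 genes is no result about this role. MSH6, the MutS subunit that reads single mismatches, kept to a narrow range in the 4 libraries, at 43.2 and 45.9 FPKM with the vector and 40.0 and 46.4 with wtBRCA1. PMS2 was at 11.2 and 12.6 FPKM and at 8.09 and 9.92, and PMS1 at 8.68 and 7.55 and at 9.27 and 10.2. MSH3, which reads insertion and deletion loops, was at 2.86 and 5.62 FPKM with the vector and 2.83 and 4.17 with wtBRCA1, a difference of 0.61 ± 0.40 log2 (limma adjusted p = 0.419). PMS2 shared 23.0% of its 50-base words with other genes on the same strand, most of them with the partial copy PMS2CL, so its reads could have been divided.

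Among nucleotide excision repair genes, GTF2H2, ERCC8 and ERCC4 differed from DMSO by more than 1 log2 unit in the vector line and by less than that in the wtBRCA1 line, with no test. GTF2H2, a core TFIIH subunit, was at 1.27 and 53.4 FPKM with the vector and 1.67 and 0.914 with wtBRCA1. The vector OTX-015 library thus stood at 42.2 times its DMSO library, and the other 3 libraries were all under 2 FPKM. GTF2H2 lies in a duplicated segment of chromosome 5 (71032670 to 71067689, minus strand), and 65.1% of its 50-base words also occur in another gene on the same strand. The copies GTF2H2C and GTF2H2B were at 3.04 and 0.346 FPKM in that library. Summed with these copies, a choice made after the values were seen, GTF2H2 was at 1.66 and 56.8 FPKM with the vector and 1.67 and 1.74 with wtBRCA1. Under DMSO the vector line had GTF2H2C at 0.399 FPKM and GTF2H2B at 0. The high value rests on 1 library, and how reads were divided between GTF2H2 and its copies was not tested.

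ERCC8, which recruits repair factors to stalled RNA polymerase, was at 12.2 and 1.36 FPKM with the vector and 4.05 and 4.73 with wtBRCA1. The difference was -2.48 log2 with the vector and 0.18 with wtBRCA1. ERCC4, the nuclease subunit that cuts 5′ of the damage, was at 6.38 and 0.933 FPKM with the vector and 2.26 and 2.34 with wtBRCA1, with differences of -1.93 and 0.03 log2. For both genes the vector line held the highest value (DMSO) and the lowest (OTX-015), and the wtBRCA1 values lay between. ERCC8 shared 26.2% of its 50-base words with other genes on the same strand, nearly all with the pseudogene GNL3LP1. ERCC4 shared 24.0% of its 50-base words with genes on the opposite strand, most of them with AC010401.1, which was at 22.4 and 11.5 FPKM with the vector and 32.2 and 17.2 with wtBRCA1. ERCC6, which acts with ERCC8, was at 3.74 and 6.45 FPKM and at 3.86 and 3.89. ERCC5, which cuts 3′ of the damage, was at 5.88 FPKM in both vector libraries and at 9.27 and 4.07 in wtBRCA1 cells.

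Of the other TFIIH and recognition genes, XPC alone differed by 1 log2 unit under OTX-015 in either line. ERCC2 and ERCC3, the TFIIH helicases, were at 50.8 and 44.5 FPKM (ERCC2) and at 14.0 and 16.5 FPKM (ERCC3) in vector cells. In wtBRCA1 cells ERCC2 was at 44.2 and 35.0 FPKM and ERCC3 at 15.3 and 10.5. GTF2H3 was at 47.0 and 66.7 FPKM with the vector and 37.0 and 19.9 with wtBRCA1, so that the difference had opposite signs in the lines, as for GTF2H2. GTF2H4, at 31.5 and 21.6 FPKM and at 37.2 and 21.9, shared 72.7% of its 50-base words with its neighbour VARS2. XPA, which checks the opened site, was at 13.2 and 11.4 FPKM with the vector and 12.6 and 14.4 with wtBRCA1. DDB2, the ultraviolet damage sensor, was at 42.7 and 32.9 FPKM with the vector and 20.8 and 20.6 with wtBRCA1. RAD23B, the partner of XPC, was at 73.9 and 60.1 FPKM and at 109 and 84.5.

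Within single pairs of libraries, differences of 1 log2 unit were counted for the members and for all genes, with no test. In vector cells 3 members were higher (GTF2H2, MLH3 and XPC) and 6 lower (ALKBH3, ERCC4, ERCC8, NEIL3, NTHL1 and XRCC1), or 7.32% and 14.6%, against 13.0% and 12.7% of all genes. In wtBRCA1 cells 0 were higher and 4 lower (ALKBH3, ERCC5, NTHL1 and XRCC1), or 0.0% and 9.76%, against 13.0% and 13.4% (26.4% in either direction). The median difference over the members was 0.00 log2 with the vector and -0.01 with wtBRCA1, beside 0.00 and 0.00 over all genes tested. The difference between the lines' responses reached 1 log2 unit in 7 members, higher in wtBRCA1 cells for ERCC4 and ERCC8 and lower for ERCC5, GTF2H2, GTF2H3, MGMT and OGG1. These 7 are 17.1% of the members, against 27.3% of all genes (13.2% higher and 14.1% lower), and no residual is left to test such a difference.

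**Figure D3:**
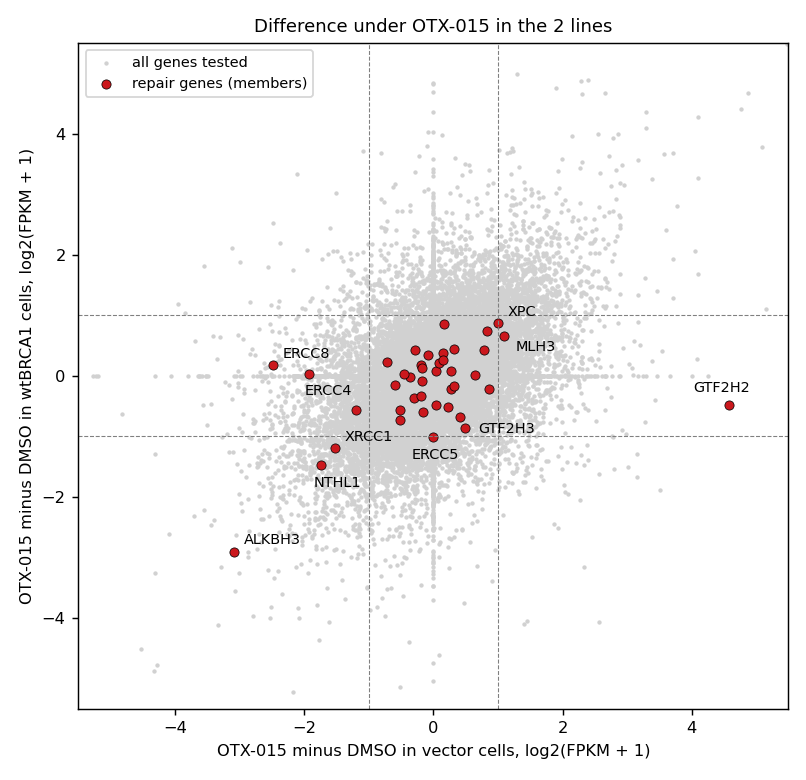
Difference under OTX-015 in vector cells (x axis) and in wtBRCA1 cells (y axis) in log2(FPKM + 1), for the 41 repair genes (red) and all genes tested (grey), with dashed lines at 1 log2 unit and 28 genes outside the axes. ALKBH3, NTHL1 and XRCC1 lie in the lower left corner, and GTF2H2, ERCC8 and ERCC4 lie far from 0 on the x axis alone.

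Between the lines, ALKBH3 was the only member past the threshold, with a difference (wtBRCA1 minus vector) of -1.49 ± 0.35 log2 (SE, limma adjusted p = 0.0322). Its wtBRCA1 level was 0.323 times the vector level under DMSO and 0.269 times under OTX-015. No member was higher by the test. Of all genes 3.34% were lower and 4.75% higher, against 2.44% and 0.0% of the members. At an unadjusted limma p under 0.05, 6 members were lower (ALKBH3, DDB2, GTF2H1, GTF2H2, GTF2H3 and XPC) and 3 higher (ERCC1, MUTYH and NEIL3), against 10.2% and 13.1%. The ALKBH3 call was kept in 3 of the 8 alternatives that kept all libraries. Without the vector DMSO library and without the treatment term its value was 0.051 log2, and without the wtBRCA1 OTX-015 library it was -0.0365. Each treatment has 1 library per line, so BRCA1 and other differences between the lines cannot be told apart.

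MUTYH, the glycosylase for adenine opposite oxidised guanine, was at 20.4 and 18.0 FPKM with the vector and 40.3 and 37.8 with wtBRCA1, under DMSO and OTX-015. It held 1.98 and 2.10 times the vector level without overlap between the lines, a separation not counted over all genes. Its difference of 0.99 ± 0.32 log2 had a limma adjusted p of 0.096. ERCC1 had a difference of 0.83 ± 0.26 log2 (limma adjusted p = 0.0888), at 1.51 and 2.12 times the vector level. GTF2H1, a TFIIH subunit, was at 23.3 and 20.7 FPKM with the vector and 12.2 and 7.67 with wtBRCA1, a difference of -1.10 ± 0.35 log2 (limma adjusted p = 0.0873). XPC and DDB2 also had both wtBRCA1 levels below the vector level of the same treatment, at 0.537 and 0.50 times for XPC and 0.488 and 0.626 times for DDB2.

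MGMT, the suicide enzyme for methylated guanine, was at 33.7 and 45.1 FPKM with the vector and 78.5 and 48.5 with wtBRCA1. Its wtBRCA1 level was 2.33 times the vector level under DMSO and 1.08 times under OTX-015, so the lines differed mainly in the DMSO libraries. Under DMSO 1 member was at least 1 log2 unit higher in wtBRCA1 cells (MGMT) and 5 lower (ALKBH2, ALKBH3, DDB2, ERCC4 and ERCC8), or 2.44% and 12.2%, against 14.8% and 11.7% of all genes. Under OTX-015 4 were higher (ERCC1, ERCC8, MUTYH and NEIL3) and 5 lower (ALKBH3, GTF2H1, GTF2H2, GTF2H3 and MLH3), or 9.76% and 12.2%, against 15% and 12.6%. ALKBH3 was the member with at least 1 log2 unit in the same direction under both treatments, where 4.44% of all genes were lower by that rule and 6.11% higher. The members' median difference was 0.03 log2 under DMSO and -0.12 under OTX-015, beside 0.04 and 0.00 over all genes tested.

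**Figure D4:**
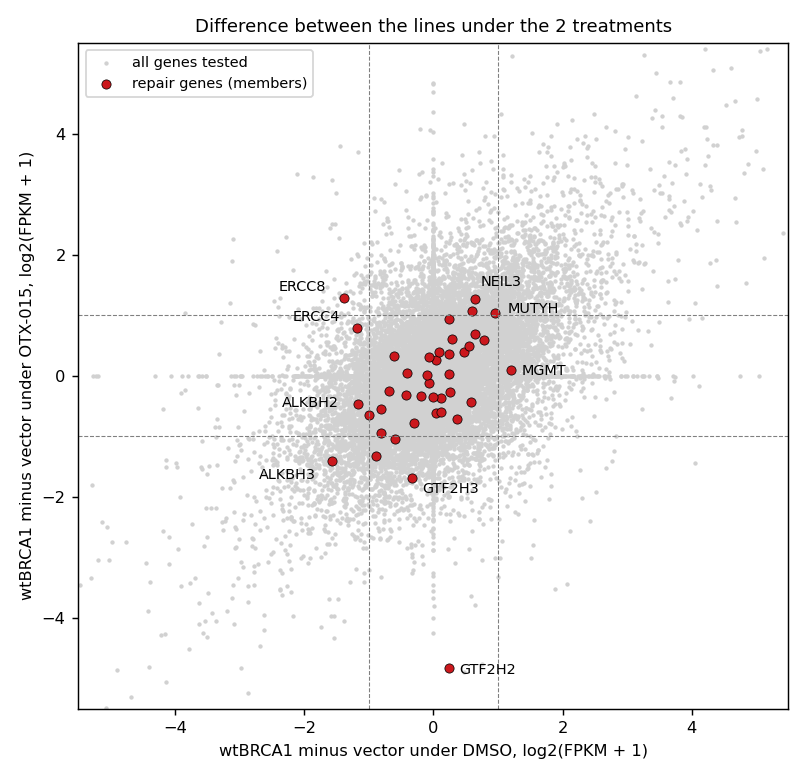
Difference between wtBRCA1 and vector cells under DMSO (x axis) and under OTX-015 (y axis) in log2(FPKM + 1), for the 41 repair genes (red) and all genes tested (grey), with dashed lines at 1 log2 unit and 46 genes outside the axes. ALKBH3 is the only member beyond the dashed lines of both axes in the same direction, and MUTYH lies at the upper right corner. ERCC8 and ERCC4 are lower under DMSO and higher under OTX-015.

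Of 39 other genes of these pathways, 38 reached the level needed for the test (APLF was listed at 0 in each library). Under OTX-015 none of the 38 fell by the test. Of all genes, 2.58% fell and 3.57% rose by that rule. At an unadjusted limma p under 0.05, 4 of the 38 were lower, or 10.5% against 10.2% of all genes. ELOF1, an elongation factor of transcription-coupled repair, was at 28.8 and 94.8 FPKM with the vector and 58.5 and 143 with wtBRCA1, and rose by 1.48 ± 0.30 log2 (SE, limma adjusted p = 0.0243). Between the lines RFC4, a subunit of the clamp loader, was higher in wtBRCA1 cells by 1.30 ± 0.30 log2 (limma adjusted p = 0.0304), and CCNH, the cyclin of the TFIIH kinase, was lower, at -1.42 ± 0.36 log2 (limma adjusted p = 0.0431). These 2 are 5.26% of the 38 genes, against 8.09% of all genes. Under DMSO and OTX-015 the differences were 0.75 and 1.84 log2 for RFC4 and -1.93 and -0.91 for CCNH.

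Transcript sequence held in common with other genes bears on how far single values can be read. The share of a gene's 50-base words found in another gene was computed from GENCODE 29 for each member. It reached 5% on either strand in 18 of the 41 genes. GTF2H4, GTF2H2 and ERCC5 had the highest shares on the same strand, at 72.7%, 65.1% and 62.3%, the last mainly with the read-through entry BIVM-ERCC5. On the opposite strand ERCC1 (27.7%), NEIL1 (24.7%) and MPG (24.5%) had the highest shares. ALKBH3 shared 1.02% on the same strand and 0.0% on the opposite strand. NTHL1 shared 13.8% on the opposite strand with TSC2, which was at 16.6 and 21.3 FPKM with the vector and 39.9 and 25.7 with wtBRCA1. XRCC1 shared 12.7% on the opposite strand, mostly with L34079.3, which was at 10.8 and 7.20 FPKM and at 23.8 and 9.64, and the part of these neighbours was not tested.

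**Figure D5:**
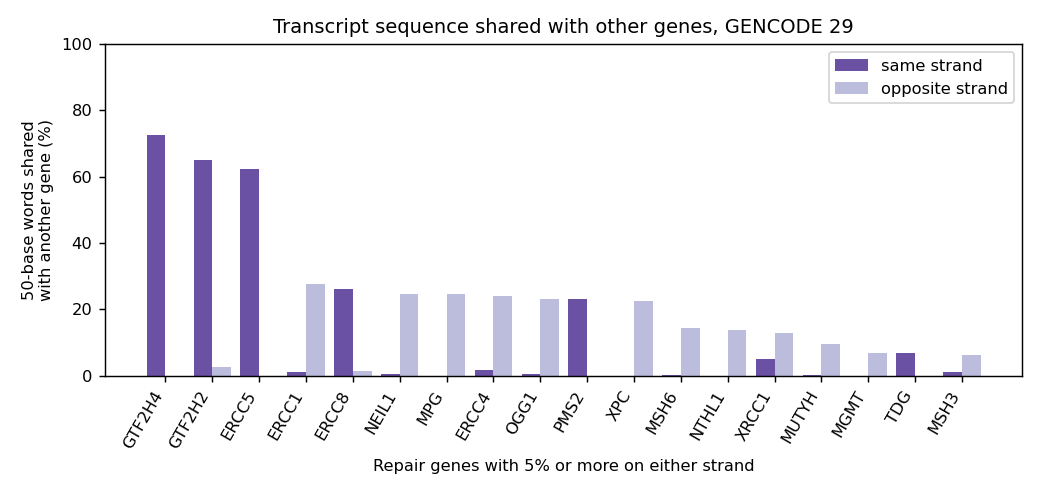
Share (%) of the 50-base words in a repair gene's transcripts that also occur in transcripts of another gene, on the same strand (dark) or the opposite strand (light), for the 18 members with 5% or more on either. GTF2H4, GTF2H2 and ERCC5 exceed 60% on the same strand, and NTHL1 and XRCC1 have shares of 13.8% and 12.7% on the opposite strand.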

How the data were processed

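Libraries were made from poly(A)-selected RNA by a directional method, per the labels' protocols. The deposited FPKM tables were made by the authors, whose tools were TopHat2 and Cufflinks with the hg38 build, per the submitters' processing notes. Tool versions, annotation release, strand setting and scaling between libraries are not given in the sources used here. Each group has 1 library and the tables hold no counts, so depth is unknown and no counting interval can be given.

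Of the gene identifiers, 56993 (94.2%) occur in GENCODE 29. Short structural RNAs (7088 genes) were dropped, 75 repeated symbols were summed, and the 18304 genes reaching 1 FPKM in at least 1 library were kept. A limma model (version 3.58.1, R 4.3.3) of log2(FPKM + 1) had terms for line and treatment and a mean-variance trend. Its p-values were adjusted by Benjamini-Hochberg over all genes kept, with a threshold of 0.05. The model was also run on data simulated from its own additive form, with no set difference of responses between the lines. That run does not show how the model performs where the responses differ. Values in all libraries are given for members called, for those at 1 log2 unit or more in both lines, in both treatments or in the difference of responses, and for the highest and lowest of each role by mean FPKM. Other members with values, and the motifs shown, were chosen after their values were seen. The members and lists were chosen with earlier results of these data known. Shared 50-base words were counted over GENCODE 29 transcripts, and the sequences before RefSeq starts come from RefSeq (GRCh38.p14). The alternatives were other pseudocounts (0.1 and 5), other FPKM filters (5 or none), rescaling by median of ratios or quantiles, no trend, no second term, and each library left out. Some related genes are not reported here. Python 3.11.15, pandas 2.3.3, numpy 2.4.6 and matplotlib 3.10.9 were used.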

Additional observations from a re-analysis of the deposited data

Results flagged for a closer look

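In 6 members the 2 lines had differences of opposite sign under OTX-015 and their responses differed by at least 1 log2 unit. Each line has 1 library per treatment, so none of these differences was tested, and 27.3% of all genes had a difference of responses of that size in either direction. The response in wtBRCA1 cells minus that in vector cells was -5.06 log2 for GTF2H2, -1.36 for GTF2H3, -1.09 for MGMT and -1.08 for OGG1. It was 2.66 for ERCC8 and 1.96 for ERCC4, where the wtBRCA1 response itself was 0.18 and 0.03 log2.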

How the results depend on the processing

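The count of 3 members that fell under OTX-015 was 1 (ALKBH3) with a pseudocount of 5, after quantile normalization and with no filter on low values, and 0 without the mean-variance trend or without the line term. The count of 1 member between the lines was 0 in each of these 5 settings. With a pseudocount of 0.1, an FPKM filter of 5 or median-of-ratios rescaling, ALKBH3 and NTHL1 passed under OTX-015 and XRCC1 did not. Leaving out each library in turn gave from 0 to 0 members for either effect, and 0 of all genes. Over the same omissions the difference of ALKBH3 between the lines ran from -3.03 to 0.051 log2, the latter without the vector DMSO library. In each omission the other term was left out too, so the OTX-015 difference enters the one between the lines, and the reverse. A fit on 3 libraries also has fewer samples, and the part of each was not tested. With a pseudocount of 5, members at 1 log2 unit or more numbered 5 in place of 9 in vector cells, 2 in place of 6 between the lines under DMSO, 4 in place of 9 under OTX-015 and 4 in place of 7 for the difference of responses, as this pseudocount shrinks low genes. Over all genes the OTX-015 count of 1125 became 714 (pseudocount 0.1), 395 (pseudocount 5), 512 (FPKM filter 5), 59 (no filter), 563 (median-of-ratios), 163 (quantile), 4 (no trend) and 1 (no line term). The line count of 1480 became 819, 802, 492, 788, 155 and 58 with a pseudocount of 5, a filter of 5, no filter, quantile scaling, no trend and no treatment term. No paired analysis was possible because the labels carry no replicate number, other than the pairing by line that the line term already makes. Depth is unknown, so the precision of low values such as ERCC4 at 0.933 FPKM cannot be given.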

Other observations

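Among the other pathway genes, 12 of 38 had responses to OTX-015 that differed between the lines by at least 1 log2 unit, against 27.3% of all genes, with no test, and those named here were chosen after their values were seen. POLD4, the small subunit of DNA polymerase delta, was at 4.37 and 35.3 FPKM in vector cells under DMSO and OTX-015 and at 23.7 and 18.3 in wtBRCA1 cells. LIG1, the ligase of replication and long-patch repair, was at 21.7 and 44.8 FPKM with the vector and 65.6 and 39.7 with wtBRCA1. For both genes the vector DMSO library was the lowest of the 4.

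The subunits of the TFIIH kinase module had different orders over the 4 libraries. CCNH was at 56.9 and 36.7 FPKM with the vector and 14.2 and 19.0 with wtBRCA1, and MNAT1, its assembly factor, at 37.1 and 25.5 and at 15.7 and 31.2. CDK7, the kinase itself, was higher in the wtBRCA1 line under both treatments, where CCNH was lower, at 7.39 and 14.3 FPKM with the vector and 18.5 and 24.0 with wtBRCA1.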
